A study of Mus musculus with 31 samples.

Results

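The genes described here are 9 genes that glucocorticoid hormone is known to induce, Tsc22d3, Ddit4, Fkbp5, Sgk1, Zbtb16, Klf9, Pik3ip1, Tsc22d1 and Dusp1, followed through the lymphoid organs of GIT2KO and WT mice. Their probes were taken by symbol in the array annotation, whatever their values, but the genes were chosen with earlier results of these data known. Of the 9 symbols, 8 are borne by a probe, by 10 of the 25697 probes on the array, and Zbtb16 is named only. All 10 probes passed the filter on dim probes, among the 15053 probes of 10341 genes that were tested. Total RNA from male mice was read on bead arrays (Illumina MouseRef-8). The animals were on a C57BL/6 background, 12 months old, and fasted before tissue collection. GIT2KO mice are homozygous for a gene trap in Git2, which encodes a scaffold protein that binds G protein-coupled receptor kinases, and the WT mice are C57BL/6 controls without the trap. There were 9 groups of 3 samples, GIT2KO and WT thymus, GIT2KO and WT inguinal lymph node (ILN), GIT2KO and WT mesenteric lymph node (MLN), GIT2KO and WT spleen, and the parathymic lobes (PTL) of GIT2KO mice. The PTL samples carry a label of additional lymph nodes, are taken here as the lobes beside the thymus that the study describes in GIT2KO mice alone, and so have no WT counterpart. The samples come from 7 animals, because GIT2KO animals 1 to 3 and WT animals 1 to 3 each gave thymus, ILN, MLN and spleen, while PTL came from GIT2KO animals 1, 2 and 5. The gene trap is present in every cell of the GIT2KO animals, so no comparison here is limited to one cell type.

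Glucocorticoids are steroid hormones of the adrenal cortex that enter cells and bind the glucocorticoid receptor, the product of Nr3c1, which then moves to the nucleus and binds DNA at response elements. In lymphoid organs they are known to kill immature thymocytes, to restrain cytokine production and to follow a daily rhythm. The genes followed here include feedback regulators, brakes on growth signalling and transcription factors. Most of them are also set by other inputs, among them insulin and PI3K signalling, nutrient supply, cell stress and the circadian clock.

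To show what letters lie at these promoters, windows running from 250 bases before to 50 bases after each annotated start were read from RefSeq (build GRCm38.p6). There were 19 such windows for the 8 genes with a probe. The full palindromic response element, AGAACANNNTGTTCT, was searched on both strands. It lay in 1 window of these genes, for Sgk1, and in 0.00913% of all 32851 windows. The half-site AGAACA forms each arm of the full element and therefore overlaps it. It lay in 5 of the 19 windows, those of 3 of the 8 genes (Tsc22d3, Sgk1 and Tsc22d1), and in 19% of all windows and 21.3% of all genes. Tsc22d3, Sgk1 and Tsc22d1 had 3, 6 and 5 windows, and each other gene with a probe had 1. The share of genes with a match therefore depends on how many windows were searched for each. The windows given here, with the full element and half-sites in capitals, are that of Sgk1 at chr10:21993640-21993939 on the plus strand, with the element at bases 62 to 76, that of Tsc22d3 at chrX:140600473-140600772 on the minus strand, with 1 half-site, and that of Ddit4 at chr10:59951721-59952020 on the minus strand, with neither. They were chosen because Sgk1 is the only gene of the 8 with the full element and did not pass the test between genotypes, while Tsc22d3 and Ddit4 showed the most negative averaged differences. A match of letters is a description and not a bound site, and windows this short leave out distant elements.
Sgk1: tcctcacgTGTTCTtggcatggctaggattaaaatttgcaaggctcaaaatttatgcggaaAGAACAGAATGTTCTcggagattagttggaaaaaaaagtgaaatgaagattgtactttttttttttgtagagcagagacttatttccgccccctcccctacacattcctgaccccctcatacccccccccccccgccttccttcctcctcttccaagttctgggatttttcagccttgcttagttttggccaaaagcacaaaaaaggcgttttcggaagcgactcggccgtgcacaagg
Tsc22d3: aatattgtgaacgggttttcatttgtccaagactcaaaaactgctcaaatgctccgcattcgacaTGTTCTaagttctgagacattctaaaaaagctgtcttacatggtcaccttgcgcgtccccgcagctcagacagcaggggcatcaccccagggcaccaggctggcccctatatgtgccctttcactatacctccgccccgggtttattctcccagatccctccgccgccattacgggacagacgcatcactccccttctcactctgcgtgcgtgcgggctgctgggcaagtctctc
Ddit4: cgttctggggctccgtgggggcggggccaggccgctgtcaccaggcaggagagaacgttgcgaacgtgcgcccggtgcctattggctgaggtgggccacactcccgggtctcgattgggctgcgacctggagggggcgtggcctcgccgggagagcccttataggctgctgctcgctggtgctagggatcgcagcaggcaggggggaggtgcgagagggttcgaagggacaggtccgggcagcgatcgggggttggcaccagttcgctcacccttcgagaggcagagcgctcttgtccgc

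Mean signal per array ran from 209 to 591 and the share of probes detected from 45.9% to 52.8% over 31 arrays. WT spleen alone held both ends of that share, and its mean signals ran from 209 to 571. Its log2 signals also spread widely for some genes, with an SD of 0.48 for Tsc22d3 and 0.73 for Tsc22d1. The SEs below are estimated over all 9 groups and do not show the spread of a single group. The number of arrays limits the precision. Git2 itself had lower group means in all 4 GIT2KO tissues on all 3 of its probes, with means of 6.48 in GIT2KO and 8.44 in WT thymus on the probe of highest mean, and without overlap on any probe except that one in spleen. Tissue labels fitted their markers, since 11 of 11 tested double-positive thymocyte markers were higher in WT thymus than in the other WT organs and 6 of 6 tested erythroid markers were higher in WT spleen than in the WT nodes. Values below are log2 signals after background correction and quantile normalization, in the order of replicates 1, 2 and 3. Differences are on the same log2 scale, on which an added offset of 16 makes the changes of dim probes appear smaller than they are. A gene is given by its brighter probe, and a gene is called when the adjusted p of limma, over all 15053 tested probes, is under 0.05. Levels are not compared between genes, because each probe has its own brightness. Where groups of 3 samples do not overlap, that is a description, and the share of all genes without overlap was not taken. In whole organs, fewer cells of a type and less RNA per cell cannot be told apart.

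The first question was whether glucocorticoid-induced genes differ between GIT2KO and WT organs. 5 of them were lower in GIT2KO mice when the 4 tissues were averaged, led by Ddit4, Tsc22d3 and Pik3ip1, and 1, Tsc22d1, was higher. In thymus 3 of 8 were lower (Tsc22d3, Ddit4 and Pik3ip1), where 9.15% of all genes were, and 1 of 8 was higher, where 7.06% of all genes were. In ILN 4 of 8 were lower (Pik3ip1, Ddit4, Klf9 and Tsc22d3), against 1.89% of all genes, and 0 of 8 were higher, against 0.909%. In MLN 1 of 8 was lower, Ddit4, against 1.36% of all genes, and 0 of 8 were higher, against 0.812%. In spleen 4 of 8 were lower (Tsc22d3, Pik3ip1, Fkbp5 and Ddit4), against 13.7% of all genes, and 1 of 8 was higher, against 10.7%. At an unadjusted p under 0.05, limma counted 4 of 8 in thymus, 6 in ILN, 4 in MLN and 6 in spleen, in either direction. The share of all genes at that threshold was not taken, so these counts cannot be set against the shares given here. For the average over 4 tissues, 5 of 8 were lower, against 14.3% of all genes, and 1 of 8 was higher, against 11%. The median difference of the 8 genes was −0.27 in thymus, −0.90 in ILN, −0.55 in MLN and −0.90 in spleen, where the median over all genes was −0.05, −0.01, −0.00036 and −0.04. The 4 tissues come from the same 6 animals, so these are not 4 independent comparisons. The genes were chosen with earlier results of these data known, and the study names Tsc22d3 and Ddit4 among its most lowered GIT2KO thymus transcripts. The counts beside shares of all genes are therefore a description and not a test of the set.

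**Figure D1:**
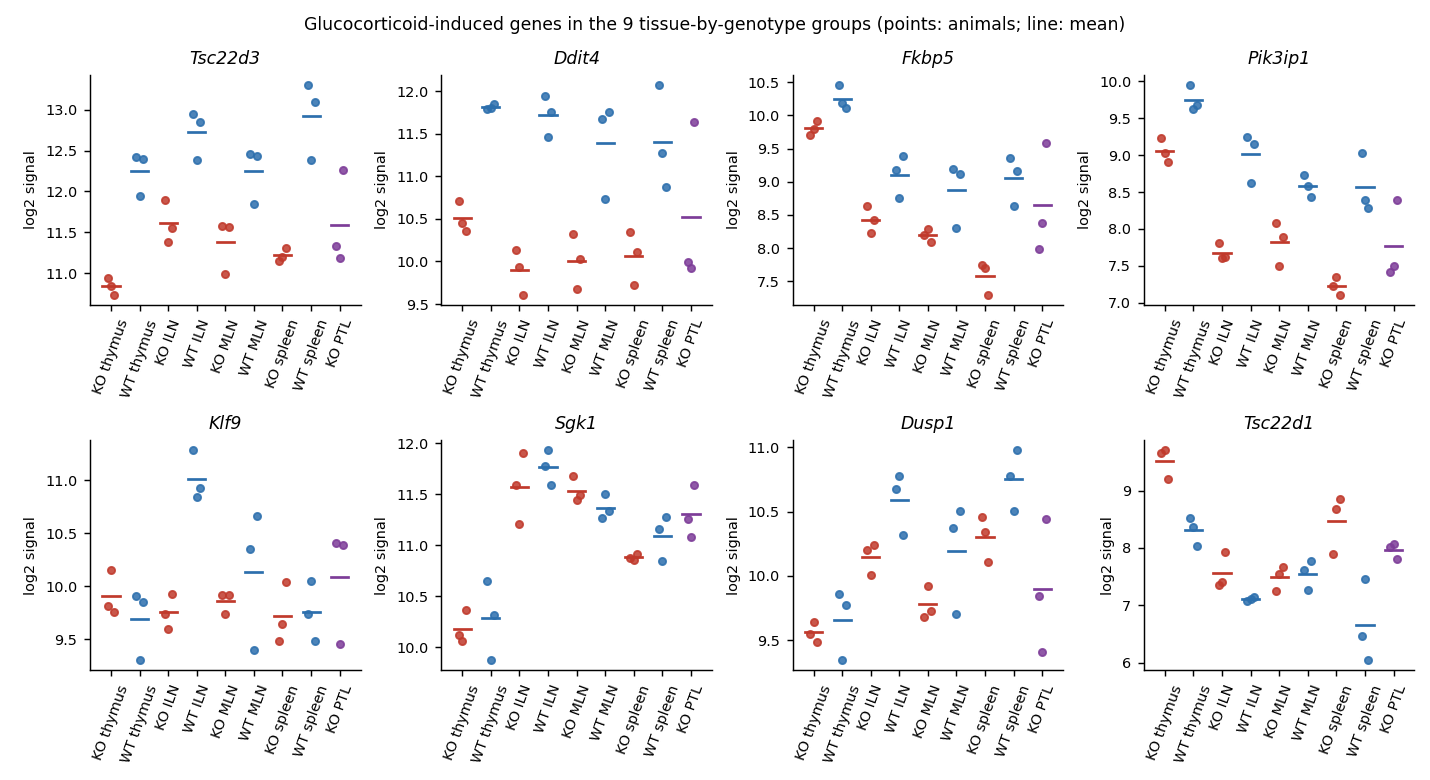
Log2 signal (y axis) of each gene's brighter probe in the 9 groups (x axis, KO for GIT2KO), with 1 point per animal, GIT2KO in red, WT in blue and PTL in purple, and a line at the group mean. Tsc22d3, Ddit4 and Pik3ip1 lie lower in GIT2KO than in WT samples of each tissue, Tsc22d1 lies higher in GIT2KO thymus and spleen, and Sgk1 overlaps in every tissue.

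Tsc22d3 encodes GILZ, a leucine zipper protein that mediates anti-inflammatory effects of glucocorticoids by binding other transcription factors. In thymus its level was 10.94, 10.84 and 10.74 in GIT2KO and 12.42, 11.94 and 12.40 in WT animals. Every GIT2KO thymus lay below every WT thymus, with a difference of −1.41 (SE 0.25, adjusted p = 0.000679), or 2.66-fold lower. In spleen it was 11.15, 11.19 and 11.31 in GIT2KO and 13.30, 12.39 and 13.09 in WT animals. Spleen showed its most negative difference, −1.71 (SE 0.25, adjusted p = 5.11e-05), or 3.28-fold lower, again with no overlap. In ILN it was 11.90, 11.38 and 11.55 in GIT2KO and 12.95, 12.39 and 12.85 in WT animals. The ILN groups did not overlap, with a difference of −1.12 (SE 0.25, adjusted p = 0.0123). In MLN it was 11.58, 10.98 and 11.57 in GIT2KO and 12.46, 11.85 and 12.43 in WT animals. Those groups did not overlap either, but the difference of −0.87 (SE 0.25, adjusted p = 0.0756) did not pass. The ILN call depended on the samples, since the adjusted p was 0.0742 without GIT2KO ILN replicate 2, 0.0558 without GIT2KO ILN replicate 3, 0.0833 without WT ILN replicate 1 and 0.0723 without WT ILN replicate 3, with differences of −1.29 to −1.01 when any 1 of the 6 was left out. It depended on the scale too, since limma on z-transformed log10 signals gave an adjusted p of 0.154. The t-test of the study's methods, after Benjamini-Hochberg adjustment, gave 0.169. Over the 9 groups the order ran WT spleen (12.93), WT ILN (12.73), WT thymus and WT MLN (both 12.25), GIT2KO ILN (11.61), PTL (11.59), GIT2KO MLN (11.38), GIT2KO spleen (11.22) and GIT2KO thymus (10.84). All 4 WT means stood above all 5 GIT2KO means on this brighter probe, and only GIT2KO spleen and GIT2KO thymus, of all neighbours in this order, did not overlap.

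Tsc22d1 belongs to the same family of leucine zipper proteins and is best known as a gene stimulated by TGF-beta. It went the other way. In spleen it stood at 7.89, 8.68 and 8.86 in GIT2KO and 6.46, 7.46 and 6.05 in WT animals. The groups did not overlap, and the difference of 1.82 (SE 0.28, adjusted p = 7.56e-05), or 3.53-fold higher, was the most positive of any of these genes in any tissue. In thymus it stood at 9.66, 9.70 and 9.21 in GIT2KO and 8.53, 8.36 and 8.04 in WT animals, without overlap. The thymus difference was 1.22 (SE 0.28, adjusted p = 0.00465), or 2.32-fold higher. In ILN it stood at 7.35, 7.41 and 7.93 in GIT2KO and 7.07, 7.11 and 7.15 in WT animals, and the difference of 0.45 (SE 0.28, adjusted p = 0.528) did not pass although the groups did not overlap. In MLN it stood at 7.25, 7.55 and 7.66 in GIT2KO and 7.62, 7.26 and 7.77 in WT animals, which overlapped, with a difference of −0.06 (SE 0.28, adjusted p = 0.96). The highest group mean was GIT2KO thymus (9.52), clear of GIT2KO spleen (8.48), WT thymus (8.31), PTL (7.96), GIT2KO ILN (7.56), WT MLN (7.55), GIT2KO MLN (7.49), WT ILN (7.11) and WT spleen (6.66). In that order GIT2KO MLN did not overlap WT ILN, and every other neighbouring pair below GIT2KO spleen overlapped.

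Ddit4 encodes REDD1, an inhibitor of mTORC1 that is induced by glucocorticoids, low oxygen and energy stress. In thymus its level was 10.71, 10.46 and 10.35 in GIT2KO and 11.79, 11.80 and 11.85 in WT animals. The 3 WT thymi lay within a narrow band, well above the GIT2KO thymi, and the difference was −1.31 (SE 0.34, adjusted p = 0.0112), or 2.47-fold lower. In ILN it was 10.14, 9.93 and 9.61 in GIT2KO and 11.94, 11.46 and 11.76 in WT animals. That difference, −1.83 (SE 0.34, adjusted p = 0.00213), or 3.54-fold lower, was the most negative of any of these genes in any tissue. In MLN it was 10.33, 9.67 and 10.02 in GIT2KO and 11.67, 10.73 and 11.76 in WT animals. In spleen it was 10.35, 9.73 and 10.12 in GIT2KO and 12.07, 11.27 and 10.88 in WT animals. Neither pair of groups overlapped, with differences of −1.38 (SE 0.34, adjusted p = 0.0288) in MLN and −1.34 (SE 0.34, adjusted p = 0.00603) in spleen, so that Ddit4 was the only one of the 8 genes called in all 4 tissues. The MLN call was lost without GIT2KO MLN replicate 2 (adjusted p = 0.157), without GIT2KO MLN replicate 3 (adjusted p = 0.102), without WT MLN replicate 1 (adjusted p = 0.147) and without WT MLN replicate 3 (adjusted p = 0.109), with differences of −1.71 to −1.20 when any 1 of the 6 was left out. In the order of group means the 4 WT groups came first, from 11.81 in thymus and 11.72 in ILN to 11.41 in spleen and 11.39 in MLN. They were followed by PTL (10.52), GIT2KO thymus (10.51), GIT2KO spleen (10.06), GIT2KO MLN (10.01) and GIT2KO ILN (9.89). GIT2KO thymus and GIT2KO spleen were the only neighbours without overlap.

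Pik3ip1 encodes a transmembrane inhibitor of PI3K that is abundant in resting lymphocytes. In thymus it measured 9.24, 9.03 and 8.91 in GIT2KO and 9.95, 9.63 and 9.68 in WT animals. In ILN it measured 7.80, 7.61 and 7.61 in GIT2KO and 9.25, 8.63 and 9.16 in WT animals. In both tissues all GIT2KO samples were the lower ones, with differences of −0.69 (SE 0.23, adjusted p = 0.0374) in thymus and −1.34 (SE 0.23, adjusted p = 0.000784) in ILN, a 2.53-fold lower level in ILN. In MLN it measured 8.08, 7.49 and 7.90 in GIT2KO and 8.73, 8.58 and 8.43 in WT animals. In spleen it measured 7.22, 7.35 and 7.11 in GIT2KO and 9.03, 8.40 and 8.28 in WT animals. There was no overlap in either tissue, with a difference of −1.34 (SE 0.23, adjusted p = 0.000211), or 2.53-fold lower, in spleen and one of −0.76 (SE 0.23, adjusted p = 0.0913) in MLN that did not pass. The thymus call did not hold without GIT2KO thymus replicate 1, 2 or 3 or WT thymus replicate 1, 2 or 3, each left out in turn, where the adjusted p was 0.0523 to 0.118 and the difference −0.78 to −0.60. WT thymus (9.75) stood above GIT2KO thymus (9.06) without overlap. GIT2KO thymus overlapped the next group, WT ILN (9.01), which was followed by WT MLN (8.58) and WT spleen (8.57). The other GIT2KO groups came last, at 7.82 in MLN, 7.77 in PTL, 7.68 in ILN and, clear of the rest, 7.23 in spleen. GIT2KO MLN and ILN did not overlap any WT group, while PTL replicate 3 lay above the lowest WT spleen.

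Fkbp5 encodes FKBP51, a co-chaperone that lowers the affinity of the glucocorticoid receptor for hormone and so forms a feedback loop. In spleen its level was 7.74, 7.71 and 7.30 in GIT2KO and 9.37, 8.63 and 9.16 in WT animals. The groups lay well apart, with a difference of −1.47 (SE 0.29, adjusted p = 0.00074), or 2.77-fold lower, the only tissue in which Fkbp5 passed. In thymus it was 9.71, 9.80 and 9.92 in GIT2KO and 10.46, 10.20 and 10.11 in WT animals. In ILN it was 8.63, 8.23 and 8.42 in GIT2KO and 9.18, 8.75 and 9.39 in WT animals, and in MLN 8.20, 8.29 and 8.09 in GIT2KO and 9.20, 8.31 and 9.12 in WT animals. The groups did not overlap in these tissues, but the differences of −0.45 (SE 0.29, adjusted p = 0.306) in thymus, −0.68 (SE 0.29, adjusted p = 0.282) in ILN and −0.68 (SE 0.29, adjusted p = 0.291) in MLN did not pass. Both thymus groups stood above all others, WT thymus (10.26) and then GIT2KO thymus (9.81), with no overlap between them or with WT ILN (9.11). WT spleen (9.05), WT MLN (8.88), PTL (8.65), GIT2KO ILN (8.42) and GIT2KO MLN (8.19) followed, each overlapping the next, and GIT2KO spleen (7.58) was lowest, without overlap.

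Klf9 encodes a Krüppel-like transcription factor induced by both glucocorticoids and thyroid hormone. In ILN its level was 9.74, 9.60 and 9.93 in GIT2KO and 11.28, 10.84 and 10.92 in WT animals. The groups lay far apart, with a difference of −1.26 (SE 0.26, adjusted p = 0.00726), or 2.4-fold lower. Without WT ILN replicate 1 the ILN difference was −1.13 with an adjusted p of 0.0584. In thymus it was 9.81, 10.16 and 9.75 in GIT2KO and 9.91, 9.31 and 9.85 in WT animals. In MLN it was 9.92, 9.74 and 9.92 in GIT2KO and 10.35, 9.40 and 10.67 in WT animals, and in spleen 9.48, 9.64 and 10.04 in GIT2KO and 9.74, 10.05 and 9.48 in WT animals. These 3 pairs of groups overlapped, with differences of 0.22 (SE 0.26, adjusted p = 0.634) in thymus, −0.28 (SE 0.26, adjusted p = 0.715) in MLN and −0.04 (SE 0.26, adjusted p = 0.939) in spleen. WT ILN (11.01) was the highest group and stood clear of the other 8, whose means ran from 10.14 in WT MLN to 9.69 in WT thymus with overlap between all neighbours.

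Sgk1 encodes a kinase of the AGC family that raises sodium transport and is induced by both glucocorticoids and mineralocorticoids. In thymus its level was 10.12, 10.06 and 10.37 in GIT2KO and 10.66, 9.88 and 10.32 in WT animals. In ILN it was 11.59, 11.21 and 11.91 in GIT2KO and 11.78, 11.93 and 11.60 in WT animals. In MLN it was 11.68, 11.45 and 11.49 in GIT2KO and 11.27, 11.51 and 11.33 in WT animals. In each of these tissues the groups overlapped. In spleen it was 10.88, 10.86 and 10.92 in GIT2KO and 11.16, 10.85 and 11.28 in WT animals, which overlapped as well. Its differences were −0.10 in thymus, −0.20 in ILN, 0.17 in MLN and −0.21 in spleen, with an SE of 0.18 and adjusted p of 0.416 to 0.765. The average over the tissues was −0.08 (SE 0.09, adjusted p = 0.553), and an interval of 2 SE on either side ran from −0.27 to 0.11. A change of the size measured for Ddit4, Tsc22d3, Pik3ip1 or Fkbp5 lies outside that interval. Its SE takes the tissues of an animal as nearly independent, so the interval can be too narrow where animals differ. By tissue, the nodes had the highest Sgk1 signals, from 11.77 in WT ILN through GIT2KO ILN (11.57), GIT2KO MLN (11.54) and WT MLN (11.37) to PTL (11.31). WT spleen (11.10) and GIT2KO spleen (10.88) came next, and WT thymus (10.28) and GIT2KO thymus (10.18) stood last and clear of the rest.

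Dusp1 encodes MKP-1, a phosphatase that switches off MAP kinases. In ILN its level was 10.20, 10.01 and 10.24 in GIT2KO and 10.68, 10.77 and 10.32 in WT animals, in which the GIT2KO samples were all lower. In spleen it was 10.46, 10.34 and 10.11 in GIT2KO and 10.77, 10.51 and 10.98 in WT animals. These groups did not overlap, while those in MLN (9.68, 9.92 and 9.73 in GIT2KO and 10.37, 9.71 and 10.50 in WT) and in thymus (9.55, 9.65 and 9.49 in GIT2KO and 9.86, 9.35 and 9.78 in WT) did. No tissue passed by itself, with differences of −0.10 (SE 0.21, adjusted p = 0.814) in thymus, −0.44 (SE 0.21, adjusted p = 0.383) in ILN, −0.41 (SE 0.21, adjusted p = 0.418) in MLN and −0.45 (SE 0.21, adjusted p = 0.125) in spleen. WT spleen (10.75) and WT ILN (10.59) had the highest means, and WT thymus (9.66) and GIT2KO thymus (9.56) the lowest, with overlap between all neighbours in the order.

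**Figure D2:**
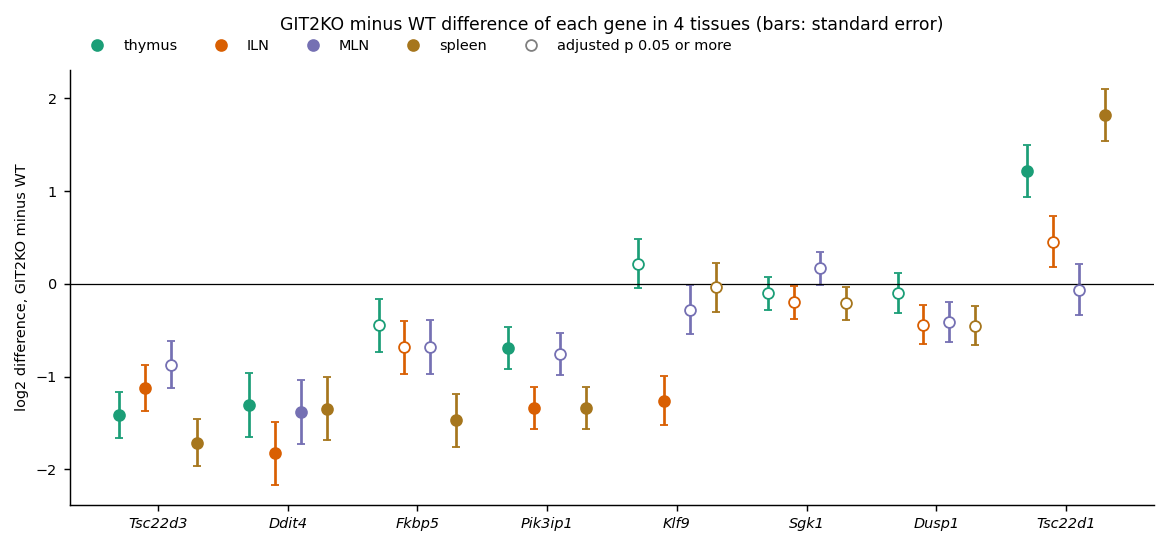
Log2 difference, GIT2KO minus WT (y axis), of each gene (x axis) in thymus, ILN, MLN and spleen, with bars of 1 standard error. Filled points passed an adjusted p of 0.05 and open points did not. Ddit4 is filled in all 4 tissues, Tsc22d1 is filled above 0 in thymus and spleen, and Klf9 is filled in ILN alone.

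Because the same 6 animals gave all 4 tissues, each animal's mean over the tissues was also taken. The differences, SEs and adjusted p beside these means come from limma's fit of single samples, with the same animal correlation (0.047) for all probes. That fit takes the tissues of an animal as nearly independent, so its SEs can be too small where animals differ. The SD between the animals' means was 0.15 in GIT2KO and 0.35 in WT for Tsc22d3, and 0.07 and 0.31 for Fkbp5. For Tsc22d3 the means were 11.39, 11.10 and 11.29 in the GIT2KO animals and 12.78, 12.14 and 12.69 in the WT animals, with an averaged difference of −1.27 (SE 0.13, adjusted p = 1.52e-07). For Ddit4 they were 10.38, 9.95 and 10.03 in the GIT2KO animals and 11.87, 11.32 and 11.56 in the WT animals, with a difference of −1.45 (SE 0.18, adjusted p = 3.48e-06). For Pik3ip1 they were 8.09, 7.87 and 7.88 in the GIT2KO animals and 9.24, 8.81 and 8.89 in the WT animals, with a difference of −1.02 (SE 0.12, adjusted p = 1.46e-06). In each of these genes all 3 GIT2KO animals were below all 3 WT animals, and among the 10341 genes ordered from the most negative averaged difference, Ddit4 stood at place 31, Tsc22d3 at 43 and Pik3ip1 at 81. For Fkbp5 the means were 8.57, 8.51 and 8.43 in the GIT2KO animals and 9.55, 8.97 and 9.44 in the WT animals, with a difference of −0.81 (SE 0.15, adjusted p = 0.000457), at place 154. For Tsc22d1 they were 8.04, 8.33 and 8.42 in the GIT2KO animals and 7.42, 7.55 and 7.25 in the WT animals, with a difference of 0.85 (SE 0.15, adjusted p = 0.000209). For Dusp1 they were 9.97, 9.98 and 9.89 in the GIT2KO animals and 10.42, 10.08 and 10.39 in the WT animals, with a difference of −0.34 (SE 0.11, adjusted p = 0.0279). These last 3 genes also showed no overlap between the animals of either genotype. The share of all genes without such overlap was not taken, so these separations cannot be set against it. The Dusp1 call was lost without GIT2KO animal 1 (adjusted p = 0.0665), GIT2KO animal 3 (adjusted p = 0.121), WT animal 1 (adjusted p = 0.171) or WT animal 3 (adjusted p = 0.0981), and also without ILN (adjusted p = 0.0731), MLN (adjusted p = 0.0609) or spleen (adjusted p = 0.0979), with differences of −0.45 to −0.28 over all such fits. For Klf9 the means were 9.74, 9.78 and 9.91 in the GIT2KO animals and 10.32, 9.90 and 10.23 in the WT animals, which overlapped, and the difference of −0.33 (SE 0.14, adjusted p = 0.0812) did not pass. It passed without WT animal 2 (−0.46, adjusted p = 0.00805), without thymus (−0.52, adjusted p = 0.029) and with the replicate number as a block (adjusted p = 0.0388), and without ILN it was −0.03 (adjusted p = 0.92).

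**Figure D3:**
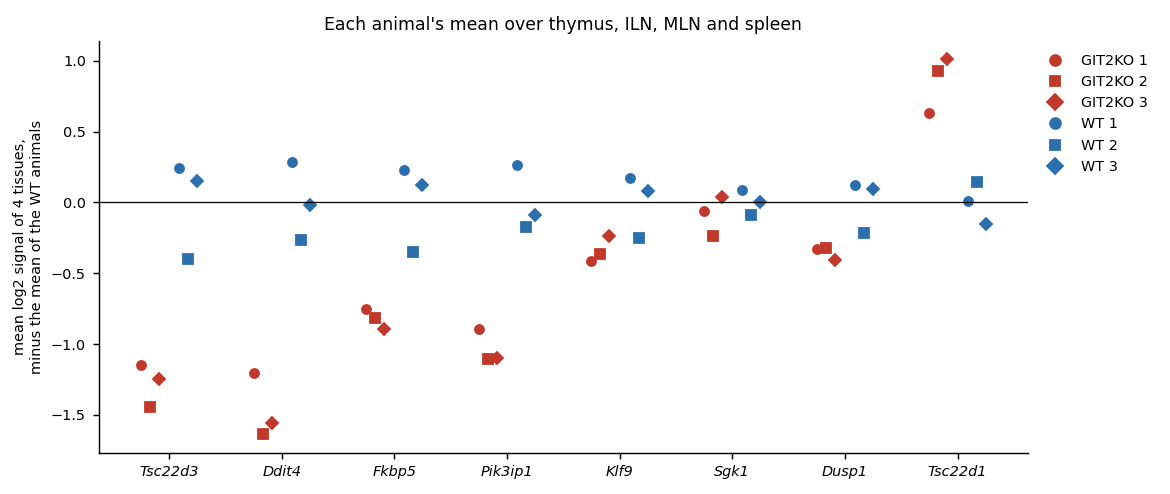
Mean log2 signal of each animal over thymus, ILN, MLN and spleen, minus the mean of the 3 WT animals (y axis), for each gene (x axis), with GIT2KO in red and WT in blue and a symbol for each animal. WT animal 2 is the lowest WT animal for Tsc22d3, Ddit4, Fkbp5, Pik3ip1, Klf9, Sgk1 and Dusp1, and all GIT2KO animals still lie below it for Tsc22d3, Ddit4, Fkbp5, Pik3ip1 and Dusp1.

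WT animal 2 had the lowest WT mean for 7 of the 8 genes, and for Tsc22d3 its 4 tissues averaged 0.40 below the WT group means. Without that animal the averaged differences were −1.47 for Tsc22d3, −1.58 for Ddit4, −0.98 for Fkbp5, −1.11 for Pik3ip1, −0.45 for Dusp1 and 0.92 for Tsc22d1, all still called, and −0.46 for Klf9, which passed there but not with all animals. WT animal 2 was also the highest WT animal for Tsc22d1. Leaving it out therefore widens each of these differences by the choice of animal, and is no check of the calls. Across the 27 samples, after the mean of each group was subtracted, the genes varied together to different degrees. Pearson's r was 0.77 between Tsc22d3 and Pik3ip1, 0.77 between Ddit4 and Pik3ip1, 0.76 between Tsc22d3 and Ddit4, and 0.76 between Tsc22d3 and Fkbp5, while Tsc22d1 correlated with Tsc22d3 at −0.27. Of the 28 pairs, 11 had an r over 0.5 and 6 an r below 0. The points share animals and a common normalization, so these values are a description.

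The GIT2KO difference was also tested for variation between thymus, ILN, MLN and spleen, by a moderated F test. It passed for 2 of 8 genes, Tsc22d1 (adjusted p = 0.0137) and Klf9 (adjusted p = 0.0449), against 7.99% of all genes. The Tsc22d1 difference was 1.82 in spleen and 1.22 in thymus but −0.06 in MLN, and that of Klf9 was −1.26 in ILN but 0.22 in thymus. For the other 6 genes the adjusted p ran from 0.26 for Fkbp5 to 0.816 for Ddit4, so that a call of Fkbp5 in spleen alone is not shown to be a difference between tissues. When 1 of the 24 samples was left out in turn, the adjusted p of Klf9 ran from 0.0123 to 0.116 and passed in 6 of 24 fits, those without GIT2KO thymus replicate 3, WT thymus replicate 1, any of the 3 WT MLN samples or WT spleen replicate 2. It was highest without WT ILN replicate 1, and Tsc22d1 passed in all 24.

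The brighter Tsc22d3 and Tsc22d1 probes gave these results, and each gene has a second, dimmer probe annotated to another transcript of the gene. The second Tsc22d3 probe measured 7.47, 6.88 and 7.42 in GIT2KO MLN and 8.45, 8.33 and 8.51 in WT MLN. The MLN groups did not overlap, with a difference of −1.17 (SE 0.30, adjusted p = 0.0396). In spleen the same probe measured 6.51, 6.87 and 7.33 in GIT2KO and 7.20, 6.88 and 5.82 in WT animals, and in thymus 7.15, 7.35 and 6.83 in GIT2KO and 7.92, 7.22 and 7.45 in WT animals. Those groups overlapped, with differences of 0.27 (SE 0.30, adjusted p = 0.565) in spleen and −0.42 (SE 0.30, adjusted p = 0.375) in thymus, so the 2 probes of Tsc22d3 disagreed in spleen in sign and in call. The order of its group means also differed, with PTL (7.96) above WT thymus (7.53), and WT spleen (6.63) last. In ILN the second probe differed by −0.67 (SE 0.30, adjusted p = 0.339), and over the 4 tissues by −0.49 (SE 0.16, adjusted p = 0.0275). The second Tsc22d1 probe was detected on 5 of 27 samples, 3 of them GIT2KO thymus, 1 GIT2KO ILN and 1 PTL, and its levels lay between 4.85 and 5.65 in all samples. It was not well above background in WT thymus, in the MLN and spleen of either genotype or in WT ILN, and its averaged difference was 0.09 (SE 0.08, adjusted p = 0.395).

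A further comparison asked how these genes differ between WT organs. Relative to the mean of WT ILN, MLN and spleen, WT thymus had more Fkbp5, Tsc22d1 and Pik3ip1 RNA and less Sgk1, Dusp1 and Klf9 RNA. That made 3 of 8 genes higher, where 25.3% of all genes were, and 3 of 8 lower, where 24.3% were. Fkbp5 was 10.26 in WT thymus and 9.01 over the other WT organs, a difference of 1.25 (SE 0.23, adjusted p = 0.0001). Tsc22d1 differed by 1.20 (SE 0.23, adjusted p = 9.91e-05) and Pik3ip1 by 1.03 (SE 0.19, adjusted p = 6.04e-05). Sgk1 was 10.28 in WT thymus and 11.41 over the others, a difference of −1.13 (SE 0.15, adjusted p = 6.09e-07). Dusp1 differed by −0.85 (SE 0.17, adjusted p = 0.00025) and Klf9 by −0.62 (SE 0.22, adjusted p = 0.0213), the Klf9 call being lost without WT thymus replicate 2 (−0.42, adjusted p = 0.194). Tsc22d3 (−0.38, SE 0.21, adjusted p = 0.131) and Ddit4 (0.31, SE 0.28, adjusted p = 0.392) did not pass. Tsc22d3 passed, as a lower gene in thymus, with the replicate number as a block in a fit of these WT groups alone (adjusted p = 0.00731). It did not pass with the animal as a random block in the fit of all groups.

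WT spleen was then set against the mean of WT ILN and MLN, and 3 of 8 genes were lower, Klf9, Sgk1 and Tsc22d1, where 13.9% of all genes were, and 0 of 8 higher, where 15.7% were. Klf9 differed by −0.82 (SE 0.23, adjusted p = 0.00894), Sgk1 by −0.48 (SE 0.15, adjusted p = 0.0215) and Tsc22d1 by −0.67 (SE 0.24, adjusted p = 0.0351). Each of these calls was lost when some of the samples were left out. Without WT spleen replicate 3 Klf9 had an adjusted p of 0.0804, and without WT spleen replicate 2 Sgk1 had one of 0.127. Tsc22d1 passed in 3 of 9 fits that left out a sample, at −0.37 (adjusted p = 0.341) without WT spleen replicate 3 and −0.58 (adjusted p = 0.118) without WT spleen replicate 1, and at an adjusted p of 0.0531 to 0.0643 without WT ILN replicate 2 or 3 or WT MLN replicate 1 or 3. With the animal as a random block in the fit of all groups, Klf9 and Tsc22d1 still passed and Tsc22d3 did not. With the replicate number as a block in a fit of these WT groups alone, Klf9 (adjusted p = 0.0517) and Tsc22d1 (adjusted p = 0.143) no longer passed. Without the block that smaller fit lost Tsc22d1 too (adjusted p = 0.125). Tsc22d3, at 0.44 (SE 0.22, adjusted p = 0.129) in the fit of all groups, passed as higher in spleen with the replicate block (adjusted p = 0.022). The second, dimmer probe of Tsc22d3 was called the opposite way, lower in WT spleen by a difference of −1.61 (SE 0.26, adjusted p = 7.35e-05), so the direction of Tsc22d3 between these organs depends on the probe.

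PTL were compared with the thymus they lie beside and with a lymph node of the same genotype. Against GIT2KO thymus, 2 of 8 genes were higher in PTL, Sgk1 and Tsc22d3, where 20.4% of all genes were, and 3 of 8 were lower, Tsc22d1, Pik3ip1 and Fkbp5, where 21.5% were. Sgk1 was 11.26, 11.08 and 11.60 in PTL and 10.12, 10.06 and 10.37 in GIT2KO thymus, a difference of 1.13 (SE 0.18, adjusted p = 1.57e-05). Tsc22d1 was 8.02, 8.07 and 7.81 in PTL and 9.66, 9.70 and 9.21 in GIT2KO thymus, a difference of −1.56 (SE 0.28, adjusted p = 6.76e-05). Pik3ip1 was 7.42, 7.50 and 8.39 in PTL and 9.24, 9.03 and 8.91 in GIT2KO thymus, a difference of −1.29 (SE 0.23, adjusted p = 6.59e-05). None of these 3 pairs of groups overlapped. Fkbp5 was 7.99, 8.38 and 9.58 in PTL and 9.71, 9.80 and 9.92 in GIT2KO thymus, a difference of −1.16 (SE 0.29, adjusted p = 0.00214), with replicate 3 of PTL standing close to the thymi. Tsc22d3 was 11.33, 11.18 and 12.26 in PTL and 10.94, 10.84 and 10.74 in GIT2KO thymus, a difference of 0.75 (SE 0.25, adjusted p = 0.0194). Cell types differed between these organs too, since 10 of 11 double-positive thymocyte markers and 6 of 7 cortical thymic epithelium markers were lower in PTL and 10 of 10 B cell markers were higher, and their part was not tested. The Tsc22d3 call was lost without PTL replicate 3 (0.42, adjusted p = 0.195) and without GIT2KO thymus replicate 3 (0.70, adjusted p = 0.0609). It was also lost with z-transformed log10 signals (adjusted p = 0.0712). Limma fits of these groups alone lost it without a block (adjusted p = 0.0534) and with the replicate number as a block (adjusted p = 0.0566). In that block numbers 1 and 2 are the same animals in both organs and number 3 is not.

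Against GIT2KO ILN, 0 of 8 genes passed in limma, where 2.47% of all genes were higher and 2.26% lower in PTL. At an unadjusted p under 0.05 limma again counted 0 of 8, and so did the equal-variance test of the study's methods. Ddit4 had the most positive difference, 0.63 (SE 0.34, adjusted p = 0.372), with levels of 10.00, 9.92 and 11.64 in PTL and 10.14, 9.93 and 9.61 in GIT2KO ILN. Intervals of 2 SE on either side ran from −0.06 to 1.31 for Ddit4, from −0.52 to 0.49 for Tsc22d3 and from −0.36 to 0.55 for Pik3ip1, so these values do not show that the organs are alike. PTL replicate 3, from GIT2KO animal 5, had the highest of the PTL values for Tsc22d3, Ddit4, Fkbp5, Pik3ip1, Sgk1 and Dusp1, and its Ddit4 level lay among those of WT tissues. Animal 5 gave no other tissue, so its PTL cannot be set against its own thymus or nodes. Adipocyte markers varied in the same samples, with a mean log2 signal of 13 tested markers between 8.35 and 10.9 in PTL, and their part in these values was not tested.

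**Figure D4:**
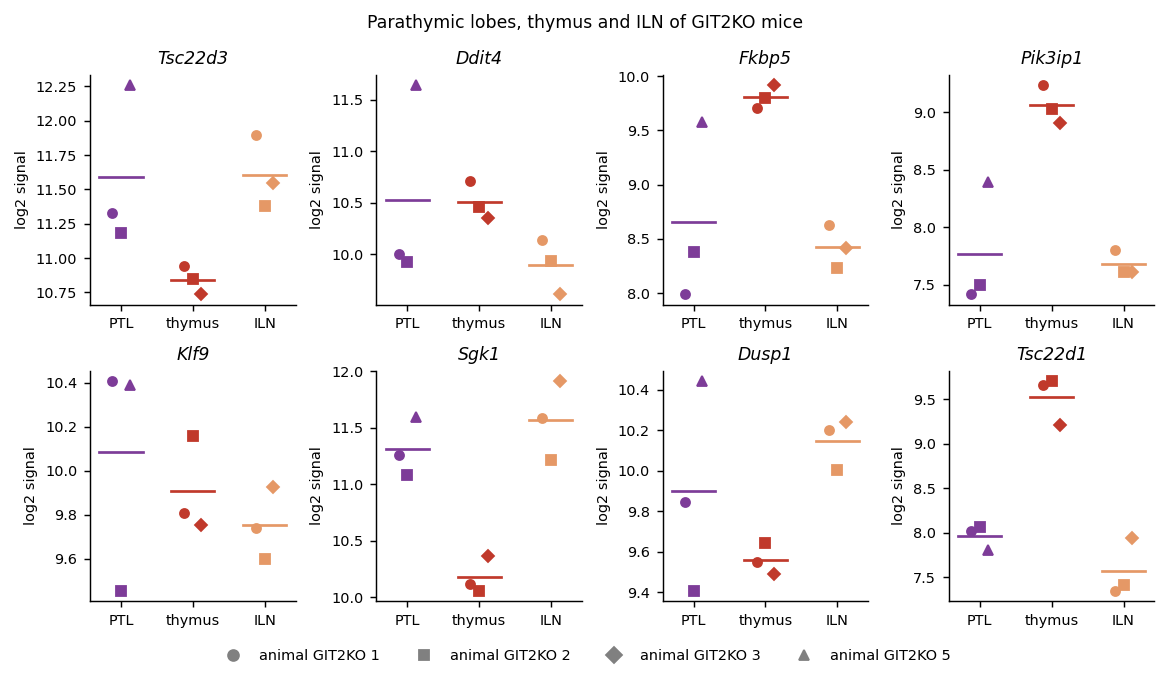
Log2 signal (y axis) of each gene in PTL, thymus and ILN of GIT2KO mice (x axis), with a symbol for each animal and a line at the group mean. PTL from animal 5 (triangles) is the highest PTL sample for Tsc22d3, Ddit4, Fkbp5 and Pik3ip1, and PTL values of Tsc22d1 and Sgk1 lie apart from those of thymus.

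A wider list of genes known to be induced by glucocorticoids was then read in the same way. Of 24 tested, 6 were lower and 2 higher in GIT2KO over the average of tissues, where 14.3% of all genes were lower and 11% higher, with a median difference of −0.19, against −0.03 over all genes. Per1, a clock gene with a glucocorticoid response element, was called in every tissue. Its levels were 8.74, 8.44 and 8.33 in GIT2KO spleen and 10.12, 9.36 and 9.37 in WT spleen, and 8.86, 8.68 and 8.80 in GIT2KO ILN and 10.53, 10.06 and 10.13 in WT ILN. Those groups did not overlap, and its averaged difference was −1.17 (SE 0.12, adjusted p = 2.78e-07). Cd163, a scavenger receptor of macrophages, differed by −1.62 (SE 0.38, adjusted p = 0.00306), Il7r, the receptor for interleukin 7, by −0.92 (SE 0.15, adjusted p = 8.05e-05), and Bmf, a promoter of apoptosis, by −0.75 (SE 0.13, adjusted p = 0.000161). Anxa1, an inhibitor of inflammation, was higher by 0.65 (SE 0.19, adjusted p = 0.0143) and Cdkn1a, a cell cycle inhibitor, by 0.27 (SE 0.10, adjusted p = 0.0403). By tissue the list had 3 of 24 lower and 1 higher in thymus, near the shares of all genes there (9.15% and 7.06%). ILN had 3 lower and 0 higher, where 1.89% and 0.909% of all genes were. MLN had 1 lower and 0 higher, against 1.36% and 0.812%. Spleen had 7 lower and 2 higher, against 13.7% and 10.7%. Lcn2 (3.17, SE 0.74, adjusted p = 0.00322) and Mertk (0.81, SE 0.25, adjusted p = 0.0216) were the 2 higher genes in spleen, and Pdk4 (1.60, SE 0.52, adjusted p = 0.0344) the 1 in thymus.

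**Figure D5:**
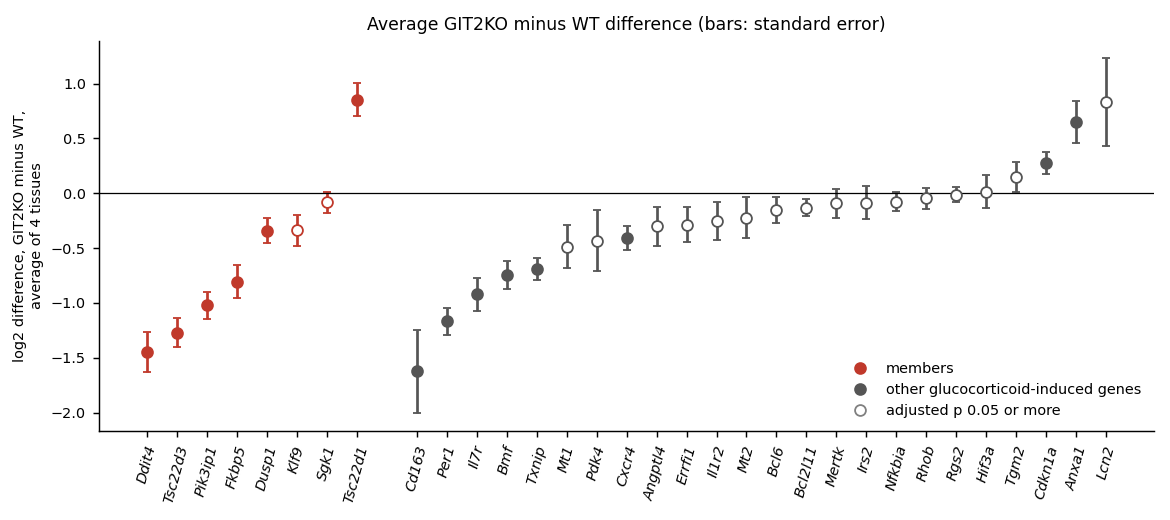
Averaged GIT2KO minus WT log2 difference (y axis) of the 8 genes described (red) and of 24 other glucocorticoid-induced genes (grey, x axis), with bars of 1 standard error and filled points for an adjusted p under 0.05. Per1, Cd163, Il7r and Bmf are lower beside Ddit4 and Tsc22d3, Anxa1 and Cdkn1a are higher, and 16 of the 24 are open.

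The receptor and its handling were examined next, because they set how a cell answers the hormone. Nr3c1 itself was a dim probe, at 6.48, 5.91 and 6.33 in GIT2KO thymus and 6.58, 6.11 and 6.46 in WT thymus, and at 4.84, 5.01 and 5.73 in GIT2KO spleen and 4.85, 5.85 and 5.33 in WT spleen. The groups overlapped in both tissues, and its averaged difference was 0.11 (SE 0.16, adjusted p = 0.662). In spleen its detection p was 0.195, 0.110 and 0.025 in GIT2KO and 0.194, 0.0025 and 0.080 in WT animals. Most of those values were not above background, so the lack of a difference there says little about the receptor gene. Of 13 tested genes of this list, 4 were higher and 0 lower over the average, where 11% of all genes were higher and 14.3% lower. These were Hsd11b1 (0.42, SE 0.12, adjusted p = 0.016), which regenerates active glucocorticoid inside cells, the chaperone genes Dnajb1 (0.40, SE 0.11, adjusted p = 0.00784) and Hspa8 (0.16, SE 0.05, adjusted p = 0.0255), and Stip1 (0.31, SE 0.11, adjusted p = 0.041), which links the HSP70 and HSP90 chaperones. In spleen 2 were higher, Hsd11b1 and Stip1, and 2 lower, Ptges3 and Nrip1, where 10.7% of all genes were higher and 13.7% lower. The other tested member of the TSC22 family, Tsc22d4, differed by −0.13 (SE 0.10, adjusted p = 0.322) and was lower in PTL than in GIT2KO thymus (−1.01, SE 0.18, adjusted p = 7.5e-05).

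Some clock genes were lower in GIT2KO mice. Of 15 tested, 6 were lower in GIT2KO thymus, 6 in ILN, 4 in MLN and 9 in spleen. Of all genes, 9.15%, 1.89%, 1.36% and 13.7% were lower in those tissues, and 7.06%, 0.909%, 0.812% and 10.7% higher. Over the average 9 clock genes were lower, where 14.3% of all genes were. Nfil3 (1.03, SE 0.31, adjusted p = 0.0224), in thymus, was the only clock gene higher in any of the 4 tissues. Dbp (−1.29, SE 0.11, adjusted p = 5.55e-09), Nr1d1 (−1.15, SE 0.14, adjusted p = 2.21e-06), Tef (−1.09, SE 0.11, adjusted p = 5.96e-08) and Per1 had the most negative averages, and all are targets or parts of the clock's loop. The part of the clock in the levels of Tsc22d3, Ddit4 and Klf9 was not tested. Genes of FoxO transcription factors and resting lymphocytes, which PI3K signalling also sets, had 7 of 12 lower and 0 higher over the average, against the same 14.3% and 11% of all genes, among them Il7r, Sesn1 (−0.56, SE 0.08, adjusted p = 2.38e-05), Fbxo32 (−0.56, SE 0.10, adjusted p = 0.000193) and Cdkn1b (−0.43, SE 0.11, adjusted p = 0.00575). Immediate early genes are the transcripts that handling and stimulation raise within minutes. Of 13 tested, limma called 0 in thymus, ILN and MLN and 1, a lower gene, in spleen. Those counts stand against the shares of all genes in each tissue given above, which in ILN and MLN leave little to expect of 13 genes. At an unadjusted p under 0.05 limma counted 1, 0, 0 and 4, where the share of all genes was not taken.

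By the correlation of deviations from group means over 27 samples, Per1 was among the 3 genes outside the list most like Tsc22d3 (r = 0.80), Ddit4 (r = 0.89) and Pik3ip1 (r = 0.84). The others were Lrrc75b and Slc17a9 for Tsc22d3, Hoxb3 and Rpl22 for Ddit4, and Kremen1 and Vps33a for Pik3ip1. Most like Fkbp5 were Hid1 (r = 0.88), Akr1c19 and Pelp1, and most like Klf9 was Txnip (r = 0.85), an inhibitor of thioredoxin and glucose uptake, followed by Yif1a and Fkbp9. For Sgk1 they were Serinc5 (r = 0.76), Steap2 and Herpud1, for Dusp1 Acer2 (r = 0.82), Emcn and Map3k6, and for Tsc22d1 Mcoln1 (r = 0.87), Tspan3 and Tmem255a.

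Cell type markers moved between the genotypes in some of the same tissues. Of all genes, 9.15% were lower and 7.06% higher in GIT2KO thymus, 1.89% and 0.909% in ILN, 1.36% and 0.812% in MLN, and 13.7% and 10.7% in spleen. In thymus 9 of 13 tested adipocyte markers were higher in GIT2KO, among them Thrsp (4.38), Ucp1 (3.85), Cidea (3.69) and Adipoq (2.98), and the log2 of their summed signal ran from 14.2 to 15.4 in GIT2KO and from 10.4 to 13.2 in WT thymus. Over the average of tissues 9 of 13 were higher too, with a median difference of 1.05, and the medians were 0.97 in ILN, 0.64 in MLN and 0.78 in spleen. In ILN and MLN limma called 0 of these 13 and in each counted 4 at an unadjusted p under 0.05, and in ILN their mean log2 signal was 7.17 to 8.64 in GIT2KO and 6.78 to 7.51 in WT animals. In spleen limma called 0 of these 13 and counted 2 at an unadjusted p under 0.05, with 3 of them undetected in GIT2KO and 7 in WT spleen. Mature T cell markers were lower in GIT2KO in spleen (13 of 13, summed log2 signal 12.4 to 12.7 in GIT2KO and 13.4 to 13.8 in WT), in thymus (6 of 13, 14.0 to 14.2 in GIT2KO and 13.9 to 14.2 in WT) and in ILN (3 of 13, 13.5 to 13.6 in GIT2KO and 14.1 in WT). In MLN limma called 0 of 13 and counted 2 at an unadjusted p under 0.05. Neutrophil granule markers were higher in GIT2KO spleen (6 of 9, summed log2 signal 15.6 to 16.3 in GIT2KO and 12.8 to 15.1 in WT), as were 3 of 6 erythroid markers (15.6 to 15.8 in GIT2KO and 14.9 to 15.7 in WT). None of the markers of these 3 blood cell lists was undetected throughout either spleen group. Among other lists, 2 of 11 double-positive thymocyte markers were lower in GIT2KO thymus (median difference −0.016), and 0 of 7 cortical thymic epithelium markers passed there. In spleen 4 of 11 genes of the double-positive thymocyte list were lower and 3 of 9 macrophage markers higher. Rag2 and Dntt of that thymocyte list were undetected in both spleen groups, and it shares Cd3e with the mature T cell list. Its count therefore does not show thymocytes in spleen. Of B cell markers, 1 of 10 was lower in thymus and 0 of 10 passed in spleen. The part of these cells in the levels of the genes described was not tested.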

How the data were processed

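Total RNA of 27 samples was hybridised to Illumina MouseRef-8 arrays by the authors, 31 arrays in all, since 4 samples were run again. The deposited table holds a non-normalized probe intensity for each array, exported from GenomeStudio 2011.1 per the labels. Beside each intensity the deposited table gives a detection p-value. A second deposited table holds scores, which the authors made by z-transforming the log10 intensities of each array, and these were used as an alternative only.

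Intensities were background-corrected, quantile-normalized and log2-transformed with neqc in limma 3.58.1 (R 4.3.3), with an offset of 16. Repeat arrays were averaged with the first. Probes with a detection p under 0.05 in at least 3 samples were tested, in 1 limma fit over the 9 groups with trended eBayes and Benjamini-Hochberg adjustment over all tested probes, at a threshold of 0.05. The average over tissues took the animal as a random block (estimated correlation 0.047). Replicates are separate animals. A gene stands for its tested probe of highest mean signal. The fit was tested on simulated data.

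The genes and all lists were chosen with earlier results of these data known. The lists overlap, and share among others Per1, Il7r, Ccr7, Irs2 and Cd3e. Named beside them are, for each gene, the 3 genes most correlated with it after group means were subtracted, up to 4 genes a list and direction with the largest differences past the threshold, the receptor gene and Git2. Genotypes share only a replicate number, and the deviations of same-numbered GIT2KO and WT samples correlated at −0.13 to 0.26. WT tissues with the same number come from the same animal (r from −0.23 to 0.30 over all same-animal pairs of both genotypes), so blocked values are given beside those results where they changed a call. Alternatives changed the background correction, scale, filter, samples in the fit, block, repeat arrays, variance estimate, probe, test and samples. Gene positions and promoters are from RefSeq, build GRCm38.p6. Symbols were missing for 1719 probes. Array positions and chip batches were not analysed here.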

Additional observations from a re-analysis of the deposited data

Results flagged for a closer look

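For 2 genes the difference between GIT2KO and WT itself differed between thymus, ILN, MLN and spleen in limma's moderated F test. Klf9 had an adjusted p of 0.0449, with a difference of −1.26 in ILN, against 0.22 in thymus, −0.28 in MLN and −0.04 in spleen. Tsc22d1 had an adjusted p of 0.0137, with a difference of 1.82 in spleen and 1.22 in thymus, against 0.45 in ILN and −0.06 in MLN. Groups of 3 samples were too small for a search for single samples that stand apart.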

How the results depend on the processing

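The 36 called differences of these genes gave 791 values under the alternatives, of which 693 kept their direction and side of the threshold, 97 kept their direction but no longer passed, and 1 reversed. That 1 was Tsc22d3 in spleen, at 0.27 on its dimmer probe. Of the 97, leaving out a sample, animal or tissue gave 51 and the methods' test after Benjamini-Hochberg adjustment gave 15. The number of genes called in MLN, 1, was 0 with z-transformed log10 signals, with the deposited scores, with only the groups compared, with the replicate block and with the methods' test after adjustment, and 2 with the dimmer probe and with the methods' test unadjusted. The F test, with 2 genes, called 1 with z-transformed signals, the deposited scores, no filter or the dimmer probe. Thymus, with 4, gave 2 with the dimmer probe and 2 with the methods' test after adjustment, which gave 0 in ILN (4) and 0 in spleen (5), where the dimmer probe gave 3. PTL against GIT2KO thymus, with 5, gave 3 with the methods' test unadjusted and 2 after adjustment.

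With 1 sample, animal or tissue left out, the counts were 3 to 3 in thymus, 2 to 4 in ILN, 0 to 2 in MLN, 5 to 5 in spleen, 5 to 7 for the average, 4 to 6 and 0 to 0 for PTL against GIT2KO thymus and ILN, 5 to 7 for WT thymus, 1 to 3 for WT spleen and 1 to 2 for the F test. With the replicate number as a block, Ddit4 in MLN had an adjusted p of 0.0757 and Tsc22d3 in PTL against GIT2KO thymus one of 0.0566, while Fkbp5 passed in thymus (adjusted p = 0.0478) and in ILN (adjusted p = 0.0199), Klf9 in the average (adjusted p = 0.0388) and Tsc22d3 in the F test (adjusted p = 0.0345). Other blocked calls that changed stand with the WT tissues. The number is 1 animal across the tissues of a genotype (in PTL, numbers 1 and 2 only), but it pairs no animals between genotypes. Apart from the average, these blocked fits held only the groups compared. Without the block, limma fits of those groups alone gave an adjusted p of 0.111 for Ddit4 in MLN and 0.0534 for Tsc22d3 in PTL. Fkbp5 passed in such fits in thymus and in ILN as well, and Tsc22d3 in the F test did not. The cause of these changes was not tested further. Signal over background limits the second Tsc22d1 probe, detected on 5 of 27 samples.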
